A study of Mus musculus with 19 samples.

Results

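Fc gamma receptors are the cell-surface receptors for immunoglobulin G. The genes described here are the mouse members Fcgr1, Fcgr2b, Fcgr3 and Fcgr4 together with Fcer1g, the signalling chain that the activating members share. They were chosen by name, as the listed genes with their symbols mapped to Ensembl identifiers, and all 5 were found in both deposited expression tables, out of 17340 genes listed in either.

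RNA was sequenced from mice given a split-dose total-body irradiation of 1100 cGy and 5000000 T-cell-depleted marrow cells, a preparation abbreviated TCD. The mice labelled GVHD, for graft-versus-host disease, also received 500000 splenic T cells, and the mice labelled TCD received marrow alone. Whole hippocampus, taken on day 80, makes up 3 libraries from GVHD and 3 from TCD mice. The sorted brain cells, taken by flow cytometry on day 70, make up 6 libraries of donor cells from GVHD mice, labelled bone marrow derived macrophages, 4 of host microglia from GVHD mice and 3 of host microglia from TCD mice. Every group, the TCD controls included, had been irradiated and transplanted, no unirradiated group was analysed here, and no group of donor macrophages from TCD mice was analysed here. The strains, the age and the antibodies of the sort are not given in the sources used here. Nothing in the labels says that libraries of 1 group came from separate animals, so p-values measure the spread between these libraries.

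The values are normalised read counts with similar totals per library, 982114 to 1078636 for hippocampus and 890565 to 1090631 for sorted cells, behind which stood an estimated 16673616 to 18546935 and 7901523 to 35844769 reads. The sorted totals differed by group, at 1051505 to 1090631 in donor libraries and 890565 to 961740 in host libraries. The sorted populations carried their labels: the summed level of 7 microglia markers was 10801 to 15228 in donor libraries and 41571 to 56892 in host libraries, and that of 7 marrow-derived macrophage markers was 73564 to 103414 in donors and 2000 to 6592 in hosts. Among the GVHD host libraries, library 1 had the highest macrophage sum (6592). Donor library 1 had the highest neutrophil sum, 576 against 19.6 to 130 in the other donors. TCD host library 1 had a neutrophil sum of 103, and its description field reads Syn where the other TCD host libraries read TCD, so its transplant group is uncertain. Library 1 of each sorted group carries a lower number after the letters API in its title than all other sorted libraries, which share 1 higher number; what API stands for is not stated.

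Activating Fc gamma receptors bind the constant part of immunoglobulin G and signal through an immunoreceptor tyrosine-based activation motif (ITAM), which for Fcgr1, Fcgr3 and Fcgr4 lies in the Fcer1g chain. Src-family kinases phosphorylate that motif, the kinase Syk docks on it, and phagocytosis, oxidative burst and cytokine release follow. Fcgr2b is the inhibitory member: it carries an inhibitory motif of its own, recruits the phosphatase encoded by Inpp5d, and sets a threshold for the activating members on the same cell. Microglia and macrophages express both kinds, and interferon gamma is a textbook inducer of Fcgr1 and Fcgr4.

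In the GRCm38 annotation Fcgr1 (ENSMUSG00000015947) lies on the minus strand of chromosome 3, at chr3:96282909-96293969. The other 4 genes lie on chromosome 1 within 276 kb that holds 11 protein-coding genes in all. Fcgr2b (ENSMUSG00000026656) is at chr1:170958617-170976547 on the minus strand, Fcgr4 (ENSMUSG00000059089) at chr1:171018920-171029761 on the plus strand, Fcgr3 (ENSMUSG00000059498) at chr1:171051174-171064935 on the minus strand and Fcer1g (ENSMUSG00000058715) at chr1:171229572-171234365 on the minus strand. An antisense gene, Gm38204, overlaps exons of Fcgr2b by 155 bases, and it was not analysed here.

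The promoters of the 4 receptors are shown because their genes differed in direction between the same libraries. They are RefSeq sequences of GRCm38.p6, 250 bases before to 50 bases after the listed start, 5′ to 3′ on the gene's strand, with matches to 3 searched motifs in capitals. The motifs, searched on both strands, were the gamma-activated sequence TTCNNNGAA (GAS), a core of the interferon-stimulated response element (ISRE), GAAA repeated after any 2 bases, and the PU-box core GAGGAA, which reads TTCCTC when it lies on the other strand.
Fcgr1, chr3:96293920-96294219, minus strand: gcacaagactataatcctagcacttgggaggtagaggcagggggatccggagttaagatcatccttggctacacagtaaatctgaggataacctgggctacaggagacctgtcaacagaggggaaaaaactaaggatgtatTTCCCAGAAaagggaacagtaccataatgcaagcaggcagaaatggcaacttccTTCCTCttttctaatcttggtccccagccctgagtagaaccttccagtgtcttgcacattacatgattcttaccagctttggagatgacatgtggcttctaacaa
Fcgr2b, chr1:170976022-170976321, minus strand: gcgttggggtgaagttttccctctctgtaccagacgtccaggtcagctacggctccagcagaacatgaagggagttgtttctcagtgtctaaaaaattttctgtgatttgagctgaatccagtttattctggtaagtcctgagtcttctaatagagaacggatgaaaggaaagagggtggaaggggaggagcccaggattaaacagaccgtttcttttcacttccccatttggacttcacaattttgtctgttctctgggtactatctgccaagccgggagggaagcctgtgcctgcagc
Fcgr3, chr1:171059354-171059653, minus strand: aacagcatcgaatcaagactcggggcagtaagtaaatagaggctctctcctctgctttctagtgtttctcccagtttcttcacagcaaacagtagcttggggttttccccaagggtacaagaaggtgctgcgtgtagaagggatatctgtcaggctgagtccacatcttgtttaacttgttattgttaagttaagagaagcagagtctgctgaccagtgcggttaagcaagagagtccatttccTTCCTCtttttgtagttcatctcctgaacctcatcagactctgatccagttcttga
Fcgr4, chr1:171018676-171018975, plus strand: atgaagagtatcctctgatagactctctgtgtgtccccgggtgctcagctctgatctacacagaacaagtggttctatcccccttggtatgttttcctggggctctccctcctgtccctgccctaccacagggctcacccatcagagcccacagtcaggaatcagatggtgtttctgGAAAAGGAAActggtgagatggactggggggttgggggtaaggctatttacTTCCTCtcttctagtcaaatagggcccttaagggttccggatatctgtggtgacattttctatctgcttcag

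Fcgr1 held a GAS match, TTCCCAGAA, beginning 109 bases before the start, and a PU-box match 55 bases before it. Fcgr4 held an ISRE match, GAAAAGGAAA, 73 bases before its start and a PU-box match 22 bases before it. Fcgr3 held a PU-box match 6 bases before this start, 1 of a pair of RefSeq starts that are 9 bases apart and lie inside the longer GENCODE gene span. The windows of Fcgr2b and Fcer1g held none of these letters. Of 27025 promoters of the same length, 8.47% held the GAS letters, 3.49% the ISRE letters and 28.3% the PU-box letters, so a match is a description of these windows and not a site.

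Fcgr2b and Fcgr3 share coding sequence, which bears on how reads were divided between them. Their coding sequences were identical at 658 of 784 aligned bases (83.9%), and 166 of the 1298 windows of 50 bases in the Fcgr3 transcript (12.8%) also occurred in Fcgr2b. Of the 3495 windows in the longer Fcgr2b transcript, 397 (11.4%) occurred in another gene. Besides Fcgr3, these genes included Olfr1039 (150 windows) and Ntrk3 (143 windows). The longest identical run is shown because a read inside it could belong to either gene; it covers coding bases 278 to 406 of Fcgr2b and 263 to 391 of Fcgr3 in the GRCm38 transcripts.
Fcgr2b and Fcgr3, 129 shared bases: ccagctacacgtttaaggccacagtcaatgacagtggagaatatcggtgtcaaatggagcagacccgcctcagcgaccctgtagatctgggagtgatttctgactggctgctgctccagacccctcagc

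Coding identity between other pairs of receptors was 58.6% to 63.5%, and no window of Fcgr1, Fcgr4 or Fcer1g was found in another gene. The values of Fcgr2b and Fcgr3 are therefore less certain than those of the other members.

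In sorted cells the 5 genes did not move together. Compared with host microglia from GVHD mice, donor macrophages had less Fcgr1 and Fcgr3 RNA (1.24-fold and 1.46-fold lower) and more Fcgr4 (1.77-fold higher). Fcgr2b (1.11-fold higher) and Fcer1g (1.34-fold higher) were not called. Compared with TCD host microglia, donor macrophages had 5.64-fold more Fcgr4, 1.5-fold more Fcgr2b and 1.47-fold more Fcer1g, and 1.49-fold less Fcgr3.

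**Figure D1:**
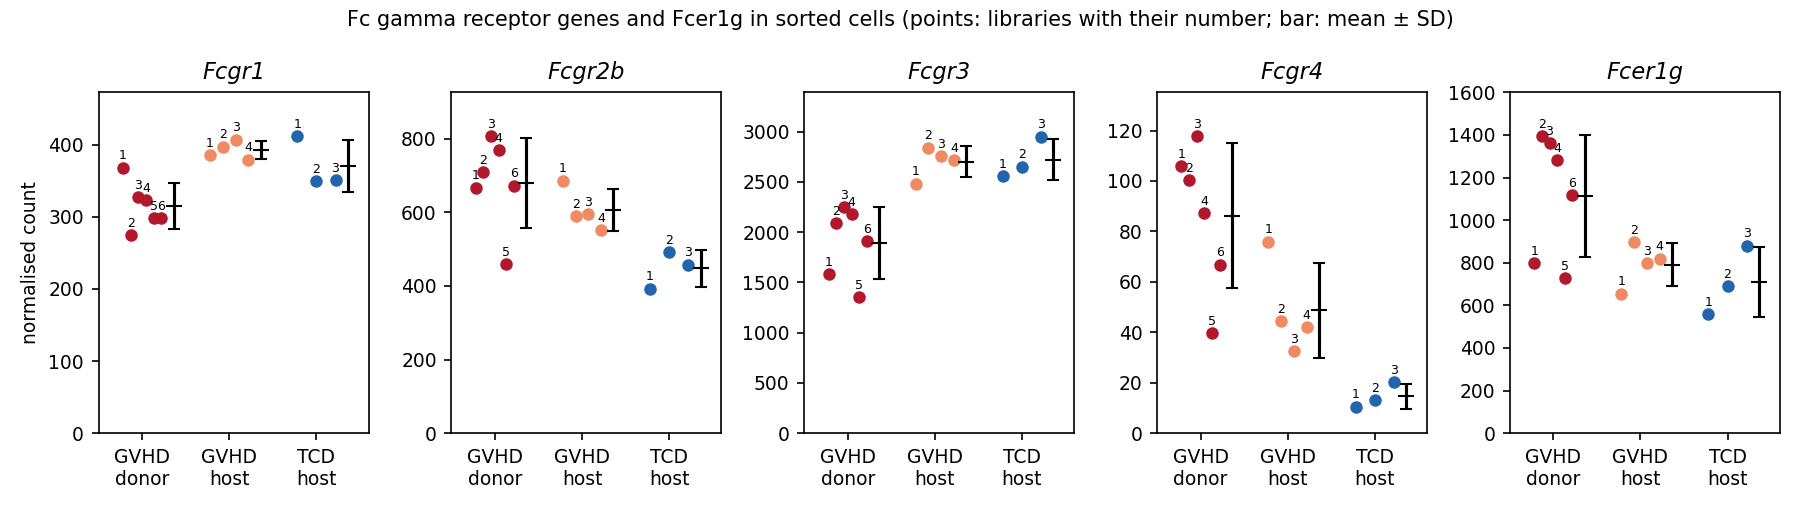
Normalised counts of each gene (vertical axes, starting at 0) in the 13 sorted libraries by group, each point a library with its number and each bar the mean ± SD. All 6 donor values of Fcgr3 lie below all 7 host values, while Fcgr4 descends from donor to GVHD host to TCD host.

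Fcgr3 encodes a low-affinity activating receptor that depends on Fcer1g for surface expression. Its level was 1355 at the lowest, 1999 at the median and 2247 at the highest of the 6 donor libraries. GVHD host libraries 1 to 4 had 2480, 2841, 2756 and 2717, and TCD host libraries 1 to 3 had 2558, 2652 and 2950. No donor library reached any host library, and the host groups overlapped each other.
In limma, a linear model on log2(value + 1) over all genes with p-values adjusted over them and called under 0.05, the donor level was lower than that of GVHD host microglia by a log2 difference of -0.55 ± 0.13 (SE; adjusted p = 0.00577). Against TCD host microglia it was -0.58 ± 0.15 (adjusted p = 0.00829). Quantile normalisation ended both calls, with -0.41 (adjusted p = 0.0737) and -0.47 (adjusted p = 0.0652).

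Fcgr1 encodes the high-affinity receptor. Donor libraries had 275 to 368 with a median of 310, GVHD host libraries 1 to 4 had 385, 397, 407 and 379, and TCD host libraries 1 to 3 had 411, 349 and 350. Donor library 1 was the highest donor and exceeded TCD host libraries 2 and 3, whereas all 6 donors lay below all 4 GVHD host libraries.
The difference from GVHD host was -0.31 ± 0.08 on the log2 scale (SE; adjusted p = 0.00938, limma). With donor and host libraries paired by API and description number, which left 4 pairs, it was -0.28 and not called (adjusted p = 0.0662). The difference from TCD host was -0.21 ± 0.09 (adjusted p = 0.0909).

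Fcgr4 encodes an activating receptor of intermediate affinity. Donor libraries 1 to 6 had 106, 100, 118, 87.3, 39.7 and 66.9. GVHD host libraries 1 to 4 had 76.0, 44.3, 32.6 and 42.1, and TCD host libraries 1 to 3 had 10.5, 13.2 and 20.2. Every TCD host library lay below every GVHD host library and every donor library, and 4 of 6 donors lay above all GVHD host libraries.
Against TCD host microglia Fcgr4 rose in donor macrophages by 2.5 ± 0.3 on the log2 scale (SE; adjusted p = 7.55e-05, limma). Against GVHD host microglia the difference was 0.82 ± 0.30 (adjusted p = 0.0481), at the edge of the threshold, and leaving out any of 8 of the 10 libraries ended the call (log2 differences of 0.67 to 0.87 in those 8). It was larger without donor library 5, the lowest donor (1.01, adjusted p = 0.00527), and without GVHD host library 1, the highest host and the one with the highest macrophage sum (1.03, adjusted p = 0.0265).

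Between the host groups Fcgr4 had the largest difference of the 5 genes. It was 3.19-fold higher in GVHD than in TCD host microglia, a log2 difference of 1.67 ± 0.36 with a 95% interval of 0.89 to 2.45, but it was not called (unadjusted p = 0.000499, adjusted p = 0.135, limma over 13086 genes). Without GVHD host library 1 the difference was 1.41 (adjusted p = 0.546), and without TCD host library 1, whose label is uncertain, it was 1.28 (adjusted p = 0.457).

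Fcgr2b encodes the inhibitory receptor. Donor libraries had 458 to 806 with a median of 691, GVHD host libraries 1 to 4 had 686, 591, 596 and 551, and TCD host libraries 1 to 3 had 393, 492 and 458. Donor and GVHD host libraries overlapped, and every GVHD host library lay above every TCD host library.
Fcgr2b rose in donor macrophages against TCD host microglia by 0.59 ± 0.16 on the log2 scale (SE; adjusted p = 0.0125, limma). Without TCD host library 1 this was 0.48 and not called (adjusted p = 0.0656). The log2 difference was 0.15 ± 0.15 between donor and GVHD host (adjusted p = 0.452) and 0.44 ± 0.17 between GVHD and TCD host (adjusted p = 0.650).

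Fcer1g encodes the common chain, which other receptors of myeloid cells also use. Donor libraries 1 to 6 had 799, 1392, 1362, 1281, 728 and 1118, GVHD host libraries 1 to 4 had 655, 896, 797 and 819, and TCD host libraries 1 to 3 had 557, 690 and 880. Donors 2, 3, 4 and 6 lay above all 7 host libraries and donors 1 and 5 lay within the host range.
Against TCD host the log2 difference was 0.55 ± 0.18 (SE; adjusted p = 0.0301, limma), and this call was lost without 6 of the 9 libraries in turn, with adjusted p from 0.0513 to 0.146. Against GVHD host it was 0.42 ± 0.16 and not called (adjusted p = 0.0625), but without donor library 5 it was 0.54 (adjusted p = 0.00119). Donor library 5 had the lowest donor value of Fcgr2b, Fcgr3, Fcgr4 and Fcer1g, and its markers were mixed. Its macrophage sum was the highest of the donors (103414) through Apoe (91741), while it was the lowest donor for 5 of the 7 macrophage markers, among them Lyz2 (10511), Ccr2 (48.8) and F13a1 (117), and its microglia sum was the highest (15228). The part of these markers in its values was not tested.

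**Figure D2:**
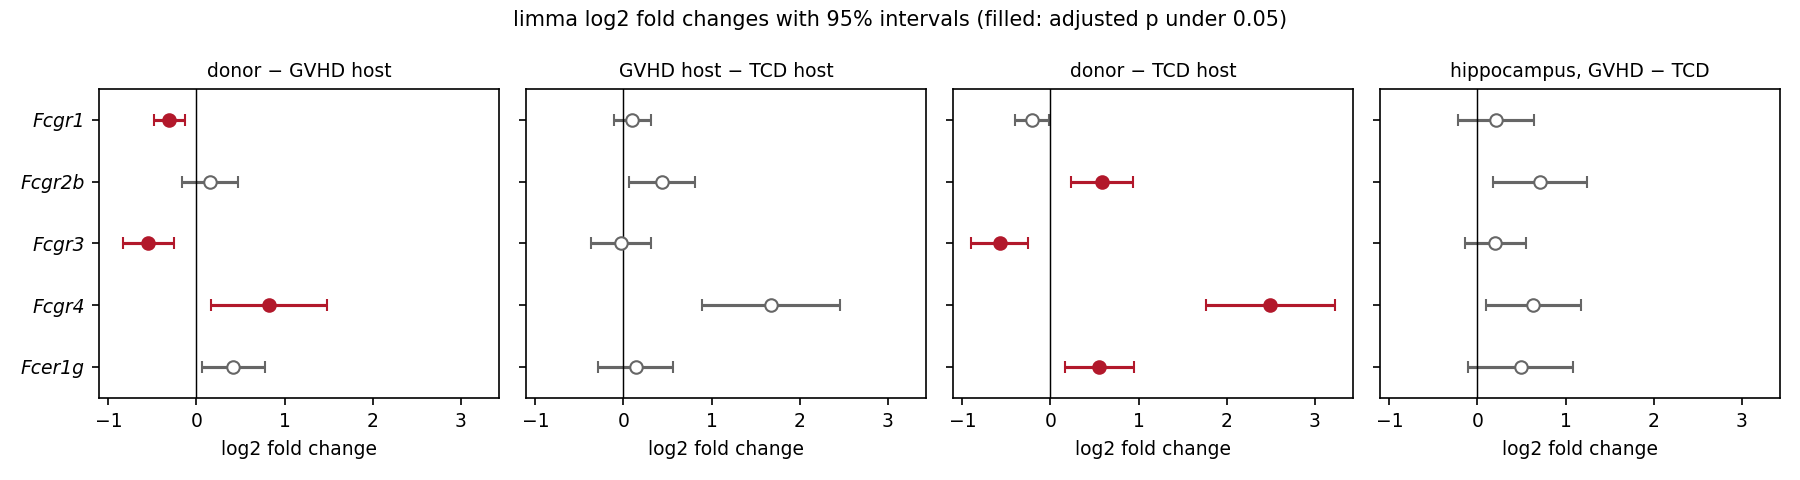
limma log2 fold changes (horizontal axes) with 95% intervals for the 5 genes in the 4 comparisons; filled points passed an adjusted p of 0.05. Fcgr1 and Fcgr3 lie left of 0 in both donor comparisons, and Fcgr2b, Fcgr4 and Fcer1g lie right of 0 in all 4 panels.

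Of the 5 genes, 1 rose and 2 fell in donor macrophages against GVHD host microglia, where 38.6% of all 13086 tested genes were called (19.4% higher, 19.2% lower). The groups did not overlap for Fcgr1 and Fcgr3, nor for 27.9% of all genes. Against TCD host microglia 3 rose and 1 fell, beside 37.0% of all genes (18.4% higher, 18.6% lower), and the groups of Fcgr3 and Fcgr4 did not overlap, beside 29.5% of all genes. These comparisons share the donor libraries and are not independent of each other. Between GVHD and TCD host microglia 0 of 5 were called, where 0.107% of all genes were; the unadjusted p was under 0.05 for Fcgr2b (0.0263) and Fcgr4, beside 6.85% of all genes, and the groups did not overlap for these 2 genes, beside 6.55% of all genes. The median log2 difference of the 5 genes was 0.15, 0.55 and 0.14 in the 3 comparisons, against 0.04, -0.01 and -0.03 over all tested genes. The called share of the 5 genes lay above that of all genes in both donor comparisons. A share of only 5 genes says nothing particular about the members.

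The libraries of the higher API number allow the same tests within 1 number, and the lower, with 1 library a group, does not. Within the higher API number donors differed from GVHD hosts by -0.38 for Fcgr1 (adjusted p = 0.00601), -0.53 for Fcgr3 (adjusted p = 0.0285) and 0.96 for Fcgr4 (adjusted p = 0.0342). Against TCD host, Fcgr4 (2.17, adjusted p = 0.000782) and Fcgr3 (-0.54, adjusted p = 0.0472) were called within it, and Fcgr2b (0.50, adjusted p = 0.0677) and Fcer1g (0.56, adjusted p = 0.0898) were not. The Fcgr4 difference between host groups within it was 1.22 (adjusted p = 0.611).

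Levels of the 4 receptors can be compared with each other only per length of transcript. Per kilobase of the longest coding transcript, Fcgr3 made up most of the receptor RNA in each sorted group: 78.5% ± 2.3 in donors (SD, n = 6), 84.7% ± 1.8 in GVHD hosts (n = 4) and 87.8% ± 0.8 in TCD hosts (n = 3). Fcgr2b held 10.7% ± 0.6, 7.25% ± 0.93 and 5.50% ± 0.59. Fcgr1 held 7.0% ± 1.6, 6.41% ± 0.21 and 6.25% ± 0.94, and in the host groups these spreads overlapped those of Fcgr2b. Within libraries, the Fcgr2b share was the larger in every donor and every GVHD host library. In TCD hosts the Fcgr1 share was the larger in libraries 1 and 3 and the Fcgr2b share in library 2. Fcgr4 was the least, at 3.79% ± 1.03, 1.66% ± 0.71 and 0.500% ± 0.136. These shares are descriptions, and they depend on the length taken, since annotated coding transcripts of Fcgr2b run from 1084 to 3544 bases and those of Fcgr3 from 547 to 1347.

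Per kilobase, Fcer1g stood at 1.01 ± 0.12 times the sum of its 3 activating partners in donor libraries (SD, n = 6), ranging from 0.835 to 1.17. In GVHD hosts the quotient was 0.527 ± 0.044 (n = 4; 0.468 to 0.571) and in TCD hosts 0.474 ± 0.078 (n = 3; 0.395 to 0.551). The lowest donor library lay above the highest host library. This quotient was not tested.

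The balance of activating to inhibitory receptor RNA was taken inside each library as the ratio of an activating receptor's value to that of Fcgr2b, without scaling to transcript length. It does not depend on how a library was scaled, and was compared between groups only. The ratio of Fcgr3 to Fcgr2b also depends on how reads of their shared sequence were divided. The Fcgr3 to Fcgr2b ratio was 2.37 to 2.96 in donors, 3.62 to 4.93 in GVHD hosts and 5.39 to 6.51 in TCD hosts, with no overlap between any of the 3 groups. The Fcgr4 to Fcgr2b ratio ran the other way, 0.087 to 0.159 in donors, 0.055 to 0.111 in GVHD hosts and 0.027 to 0.044 in TCD hosts, and donors and GVHD hosts overlapped. The Fcgr1 to Fcgr2b ratio was 0.387 to 0.650 in donors, 0.561 to 0.687 in GVHD hosts and 0.708 to 1.05 in TCD hosts.

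The ratios were tested by exact two-sided permutation with the smaller tail doubled, and the smallest p named here is that of this method. The log2 ratio of Fcgr3 to Fcgr2b was lower in donors than in GVHD hosts by -0.68 (exact p = 0.00952, the smallest that 6 against 4 libraries allow). The difference from TCD hosts was -1.13 (exact p = 0.0238, the smallest for 6 against 3). The corresponding differences for Fcgr1 were -0.47 (exact p = 0.0190) and -0.82 (p = 0.0238), and for Fcgr4 0.66 (p = 0.0286) and 1.94 (p = 0.0238). Between GVHD and TCD hosts they were -0.45 for Fcgr3, -0.35 for Fcgr1 and 1.28 for Fcgr4, each with no overlap and an exact p of 0.0571, the smallest that 4 against 3 libraries allow. None of the 12 ratio tests passed after adjustment over them: the donor comparisons had an adjusted exact p of 0.0571 and the host comparison 0.0762. With libraries as pairs the differences kept their direction, but so few pairs cannot pass. For donors against GVHD hosts, the 4 pairs by API and description number gave -0.36, -0.71 and 0.63 for Fcgr1, Fcgr3 and Fcgr4, each with an exact p of 0.125, the smallest that 4 pairs allow. For donors against TCD hosts, which come from different mice, 3 pairings by title number gave -0.90, -1.18 and 2.23 (exact p of 0.25, the smallest that 3 pairs allow, and adjusted p = 0.273). All these ratios share Fcgr2b as denominator, and the 3 comparisons share libraries.

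**Figure D3:**
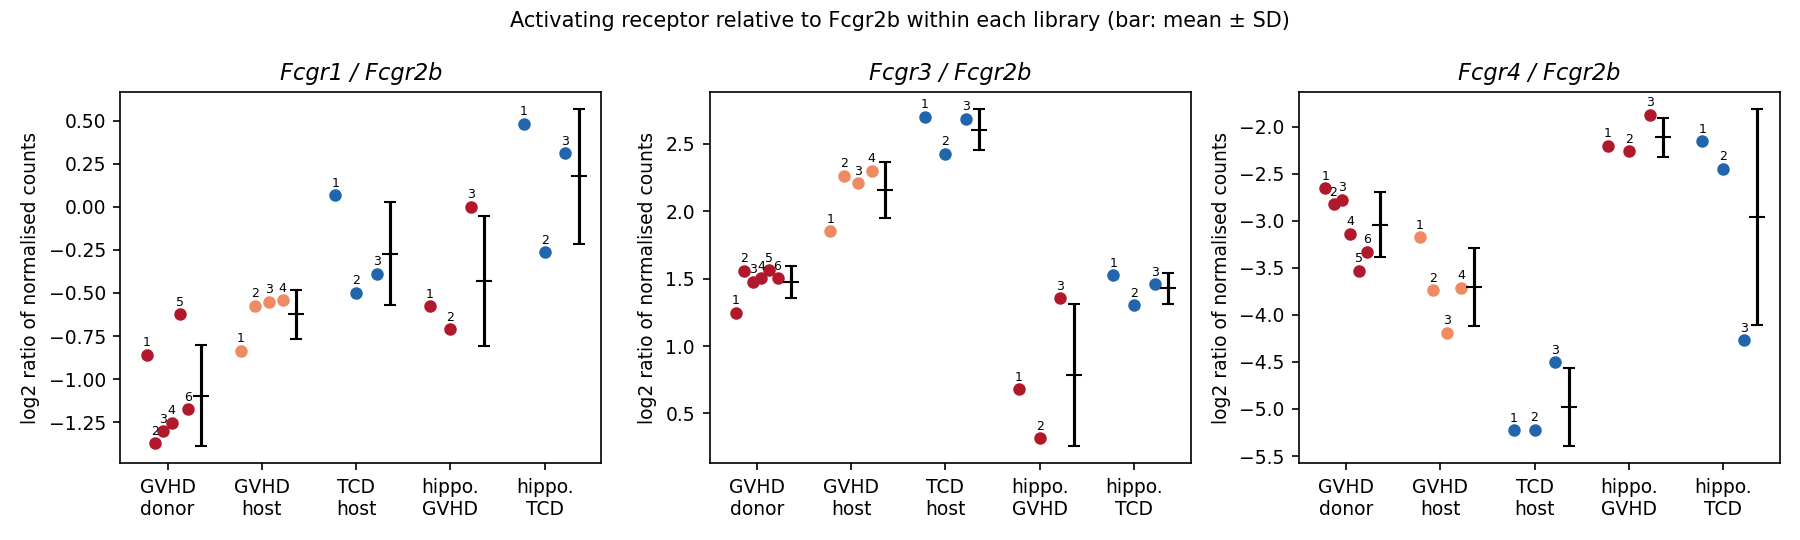
log2 ratio of Fcgr1, Fcgr3 and Fcgr4 to Fcgr2b (vertical axes, 1 panel a gene) within each library of the 3 sorted and 2 hippocampus groups; points are libraries with their number and bars the mean ± SD. In the sorted groups the Fcgr3 ratios of donors, GVHD hosts and TCD hosts occupy separate ranges.

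Within the whole hippocampus these genes were low, with an estimated 2 to 258 reads each per library. In bulk tissue, fewer cells of a type and less RNA per cell cannot be told apart. All 5 fold changes were above 0 for GVHD against TCD and 0 of 5 were called, where 0.479% of 14404 genes were. The median log2 difference of the 5 was 0.49, against 0.00 over all tested genes.

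Fcgr2b had 5.72, 7.89 and 3.87 in GVHD hippocampus libraries 1 to 3 and 3.37, 3.56 and 2.36 in TCD libraries 1 to 3, with no overlap. Fcgr4 had 1.24, 1.65 and 1.06 against 0.756, 0.653 and 0.122, also with no overlap, from 2 to 29 estimated reads. Groups did not overlap for 24.0% of all genes tested there.
The log2 differences were 0.71 ± 0.23 for Fcgr2b (SE; unadjusted p = 0.0156, adjusted p = 0.186) and 0.63 ± 0.24 for Fcgr4 (unadjusted p = 0.0270, adjusted p = 0.225), on the log2 of value plus 1, which understates the change of low genes. With a pseudocount of 0.1 the Fcgr4 difference was 1.41 (adjusted p = 0.264). An unadjusted p under 0.05 was reached by 17.0% of all genes.

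Fcer1g had 9.56, 14.6 and 8.21 in GVHD and 10.8, 5.82 and 5.87 in TCD hippocampus (log2 difference 0.49 ± 0.26, adjusted p = 0.382). Fcgr3 had 9.18, 9.82 and 9.91 against 9.71, 8.79 and 6.50 (0.20 ± 0.15, adjusted p = 0.532), and Fcgr1 had 3.83, 4.82 and 3.87 against 4.71, 2.97 and 2.94 (0.21 ± 0.19, adjusted p = 0.625). For these 3 genes TCD library 1 lay within or above the GVHD range. Without it the differences were 0.75 for Fcer1g, 0.31 for Fcgr3 and 0.38 for Fcgr1. Fcer1g was 0.27 without GVHD library 2, Fcgr3 was 0.054 without TCD library 3, and Fcgr1 was 0.12 without GVHD library 2, TCD library 2 or TCD library 3; none was called (adjusted p from 0.157 to 0.855, limma).
Beside these values, the summed microglia markers were 185 to 276 in GVHD and 243 to 279 in TCD, and the sum of 5 general myeloid markers was 118 to 124 and 92.0 to 124. GVHD library 2, with the highest Fcgr1, Fcgr2b, Fcgr4 and Fcer1g, had the highest macrophage sum (2935) and the lowest microglia sum (185). Apoe alone was 2663 of that macrophage sum and 1360 to 1910 in the other hippocampus libraries, so the sum mostly follows 1 gene. Ms4a7 (7.61), Lyz2 (202), Clec12a (5.34) and Itga4 (55.2) were also highest in GVHD library 2. Ccr2 (0.624) and F13a1 (1.31) were not. The sum of 5 choroid plexus markers, at 1005 to 3574 in GVHD and 25.8 to 101 in TCD, set the groups apart as well, and the part of these sums in the receptor values was not tested. The ratios to Fcgr2b overlapped between the groups (log2 differences of -0.61 for Fcgr1, -0.64 for Fcgr3 and 0.85 for Fcgr4; exact permutation p of 0.2, 0.2 and 0.3, where 3 against 3 allow no less than 0.1).

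**Figure D4:**
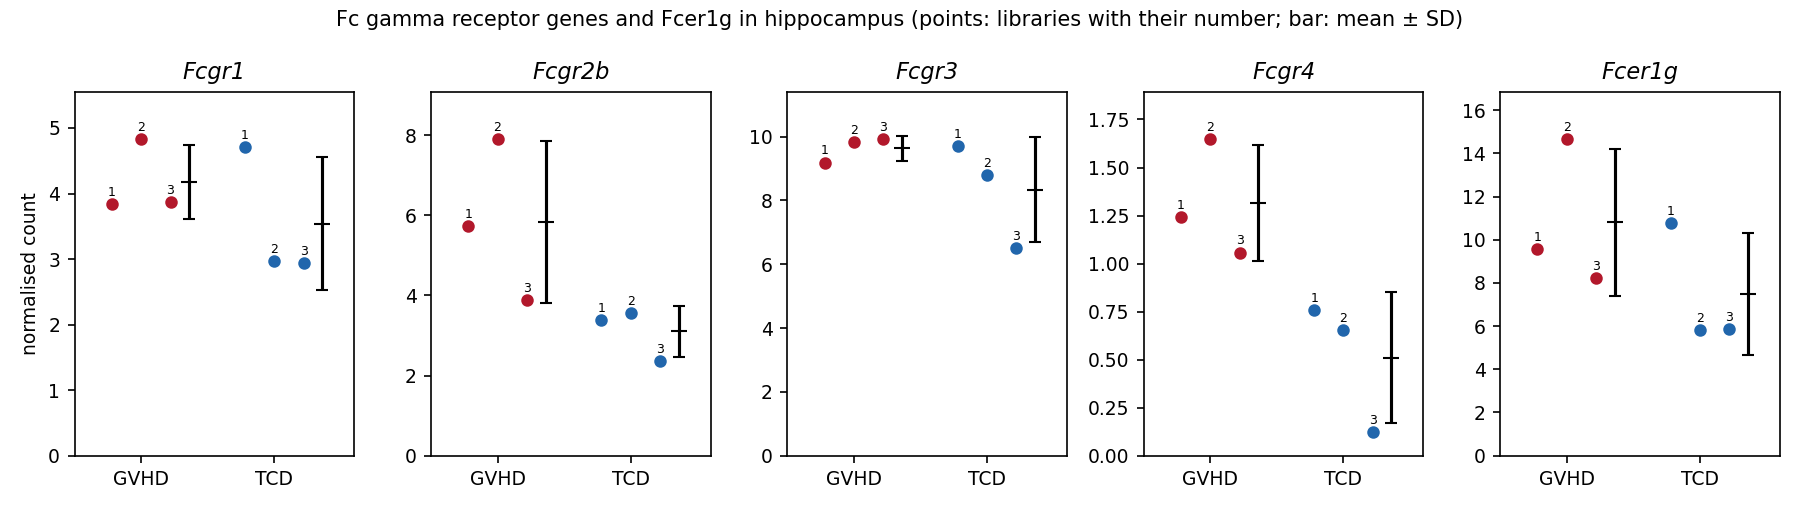
Normalised counts (vertical axes, starting at 0) in the 6 hippocampus libraries, points with library numbers and bars the mean ± SD. Fcgr2b and Fcgr4 are higher in all 3 GVHD libraries than in all 3 TCD libraries, and the groups overlap for the other genes.

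Other blood and lymphoid cells also carry these receptors, and some of their markers were measured in the sorted libraries. Neutrophils express Fcgr3 and Fcgr4; the sum of 6 measured neutrophil markers was 19.6 to 576 in donors, 0.319 to 17.4 in GVHD hosts and 1.69 to 103 in TCD hosts, led in donor library 1 by Ngp (317) and Ltf (112). NK cells express Fcgr3 and Fcer1g; the sum of 6 NK markers was 32.8 to 131 in donors, 13.4 to 35.8 in GVHD hosts and 7.60 to 9.98 in TCD hosts, most of the donor sum being Klrk1 (28.7 to 118) with Ncr1 at 0.6 to 1.8. B cells express Fcgr2b; Cd79b was 17.1 to 45.9 over the sorted libraries, Cd79a and Ms4a1 were at most 5.7 and 3.2, and Jchain and Mzb1 were not analysed here. The light chain gene Igkc was at 35.1 ± 84.5 in donors (SD, n = 6), 0.615 ± 0.615 in GVHD hosts (n = 4) and 5.25 ± 8.53 in TCD hosts (n = 3). The part of these cells in the receptor values was not tested. The Fcgr4 call against TCD hosts remained when each library was left out in turn (log2 differences of 2.14 to 2.83), which does not test the part of these cells.

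The genes whose levels most resembled each member over the 13 sorted libraries were taken by the Pearson correlation of log2 values, given as a description of libraries that share 3 groups. For Fcgr4 they were Iigp1 (0.991), H2-T22 (0.986) and Psmb9 (0.985), and for Fcgr2b Ifih1 (0.967), Irgm1 (0.953) and F830016B08Rik (0.945). For Fcgr3 they were Pycard (0.977), Creb3 (0.977) and Unc50 (0.975), for Fcgr1 Eng (0.943), Il13ra1 (0.937) and Brip1os (0.935), and for Fcer1g they included Gm10177 (0.988) and Rpl34 (0.983). A correlation above 0.9 was shared with 15 genes for Fcgr1, 16 for Fcgr2b, 81 for Fcgr4, 168 for Fcgr3 and 402 for Fcer1g.

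Around the receptors, 8 lists of genes of the pathway were followed, with 88 tested members in sorted cells. In donor macrophages against GVHD host microglia 27 rose and 16 fell, where 19.4% of all genes rose and 19.2% fell. Against TCD host microglia 19 rose and 16 fell, where 18.4% of all genes rose and 18.6% fell. The called share of the lists lay near that of all genes against TCD hosts. Against GVHD hosts the share that rose was above that of all genes, and the share that fell was near it. Between GVHD and TCD hosts 0 of 88 were called by limma and 5 had an unadjusted p under 0.05, beside 6.85% of all genes. In hippocampus 0 of 71 were called and 16 had an unadjusted p under 0.05, beside 17.0% of all genes.

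The list of other ITAM chains and receptors that use Fcer1g or Tyrobp holds the chain Tyrobp, and Hcst, a chain without an ITAM, besides C-type lectins and Trem2. Of 9 tested, 6 rose and 1 fell against GVHD host microglia (19.4% and 19.2% of all genes), with a median log2 difference of 2.49 against 0.04 over all genes. Against TCD host microglia 7 rose and 1 fell (18.4% and 18.6% of all genes), with a median of 2.82 against -0.01. Clec4n, a C-type lectin for fungal mannans that signals through Fcer1g, had 113 ± 46 in donors (SD, n = 6) and 3.30 ± 1.58 in GVHD hosts (n = 4), a log2 difference of 4.76 ± 0.30 (SE; adjusted p = 1.02e-07). Clec4e, the Mincle receptor, had 39.9 ± 39.7 and 0.352 ± 0.417 (4.31 ± 0.68, adjusted p = 0.000247), and Clec4d, its partner, 5.82 ± 4.74 and 0.148 ± 0.147 (2.36, adjusted p = 0.000122). Clec7a, the beta-glucan receptor Dectin-1, which carries its own activation motif, rose by 2.49 (adjusted p = 1.52e-05). Trem2, a lipid receptor that signals through Tyrobp, fell by 0.71 on the log2 scale (adjusted p = 0.000645), and Tyrobp itself differed by 0.22 (adjusted p = 0.183).

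Among 9 proximal kinases 2 rose and 3 fell against GVHD host microglia, and 1 rose and 3 fell against TCD host microglia, beside 38.6% and 37.0% of all genes called. Yes1, a broadly expressed Src-family kinase, had 0.299 ± 0.073 in donors (SD, n = 6) and 6.33 ± 2.04 in GVHD hosts (n = 4), a log2 difference of -2.42 (adjusted p = 2.14e-07). Lyn, a Src-family kinase of myeloid and B cells, was lower by a log2 difference of -0.29 (adjusted p = 0.00994), which was not called with libraries paired by API and description number (-0.26, adjusted p = 0.0573). Btk, a Tec-family kinase, was lower (-0.38, adjusted p = 0.00300) and Syk, which docks on the phosphorylated chain, higher (0.60, adjusted p = 0.0220). The Syk call was lost without donor library 1 (0.59, adjusted p = 0.0512), without GVHD host library 1 (0.45, adjusted p = 0.0900) or 2 (0.57, adjusted p = 0.0609), within the higher API number (0.48, adjusted p = 0.0803) and without the API covariate (0.54, adjusted p = 0.149). Lyn was also not called with the GC slope removed (-0.25, adjusted p = 0.0594).

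Of 22 adaptors and effectors, 4 rose and 4 fell against GVHD host microglia, a share near the 38.6% of all genes called. Vav3, a guanine nucleotide exchange factor, had 6.57 ± 3.64 in donors (SD, n = 6) and 0.111 ± 0.155 in GVHD hosts (n = 4; log2 difference 2.64, adjusted p = 4.22e-05), whereas Plcg1, a phospholipase C, and Pik3r1, a regulatory subunit of phosphoinositide 3-kinase, were lower (-1.70, adjusted p = 6.14e-06, and -1.06, adjusted p = 6.95e-06). Bcl10, of the Card9 signalling complex, was higher by 0.49 (adjusted p = 0.000858).
Of 14 genes of the phagocytic cup, 4 rose and 4 fell in the same comparison, where 19.4% of all genes rose and 19.2% fell. The called share of this short list was above that of all genes. Elmo1 and Dock2, which activate Rac, were lower (-1.02, adjusted p = 0.000118, and -0.61, adjusted p = 1.21e-05), as was Nckap1l of the WAVE complex (-0.40, adjusted p = 0.0100), while the Arp2/3 subunit Arpc3 was higher (0.57, adjusted p = 0.00429).

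In the inhibitory arm 7 of 14 rose and 3 fell against GVHD host microglia, beside 19.4% and 19.2% of all genes, and 3 rose and 3 fell against TCD host microglia, beside 18.4% and 18.6%. Pirb, an inhibitory receptor for MHC class I, had 188 ± 80 in donors (SD, n = 6) and 44.7 ± 13.7 in GVHD hosts (n = 4; log2 difference 2.05, adjusted p = 8.24e-06), and the adaptor Dok3 was higher by 1.25 (adjusted p = 9.10e-05). Inpp5d, the phosphatase that Fcgr2b recruits, had 354 ± 42 and 593 ± 46 (-0.75, adjusted p = 9.45e-05), and Pag1, an adaptor that brings Csk to Src-family kinases, 54.8 ± 9.3 and 216 ± 38 (-1.97, adjusted p = 5.15e-07). Against TCD host microglia Inpp5d differed by -0.62 (adjusted p = 0.00105) and Pirb by 2.22 (adjusted p = 1.13e-05).

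Of the other Fc receptors 5 of 13 listed were tested. Trim21, the cytosolic receptor that detects antibody inside cells, had 2.90 ± 0.85 in donors (SD, n = 6), 23.1 ± 3.0 in GVHD hosts (n = 4) and 15.1 ± 11.6 in TCD hosts (n = 3). It was lower in donors than in GVHD hosts by -2.72 on the log2 scale (adjusted p = 0.000261), and than in TCD hosts by -1.70 (adjusted p = 0.0131, and -1.46 with adjusted p = 0.0882 with title numbers as blocks). The latter call was lost without TCD host library 2 (-1.33, adjusted p = 0.0962) or 3 (-1.22, adjusted p = 0.107), and the difference was -2.58 without TCD host library 1 (adjusted p = 5.79e-06). The Fc receptor-like genes Fcrl1 (1.54, adjusted p = 0.0155) and Fcrlb (0.63, adjusted p = 0.0189) were higher in donors than in GVHD hosts, the latter at values of 1.75 ± 0.67 and 0.764 ± 0.154. Fcrl1 was 0.93 without GVHD host library 1 (still called) and was not called with title numbers as blocks (1.37, adjusted p = 0.0932). Fcrlb was not called without donor library 1 (0.57), GVHD host library 1 (0.55) or GVHD host library 3 (0.59), within the higher API number (0.53) or with the GC slope removed (0.51), with adjusted p from 0.0547 to 0.0887. Fcgrt, the neonatal Fc receptor that recycles immunoglobulin G, differed by 0.15 (adjusted p = 0.522).

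Among 10 regulators of Fc receptor genes 2 rose and 0 fell in donors against GVHD hosts, beside 38.6% of all genes called. Irf1, an interferon-induced factor, differed from TCD hosts by 1.00 in donors (adjusted p = 0.000243) and by 0.65 in GVHD hosts (adjusted p = 0.195). Cebpb was higher in donors than in GVHD hosts by 0.56 (adjusted p = 0.0346), not called with libraries paired by description number (0.55, adjusted p = 0.0967), with the GC slope removed (0.40, adjusted p = 0.292), within the higher API number, without the API covariate, or without any 1 of donor libraries 1, 2 and 3 and GVHD host libraries 2 and 3 (adjusted p of 0.0526 or more). The interferon gamma receptor chain Ifngr1 was lower in donors than in TCD hosts (-0.44, adjusted p = 0.00714), but not called within the higher API number (-0.31, adjusted p = 0.0615) or after quantile normalisation (-0.28, adjusted p = 0.0919). Spi1, which encodes PU.1, differed by 0.40 between donors and GVHD hosts (adjusted p = 0.477).

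**Figure D5:**
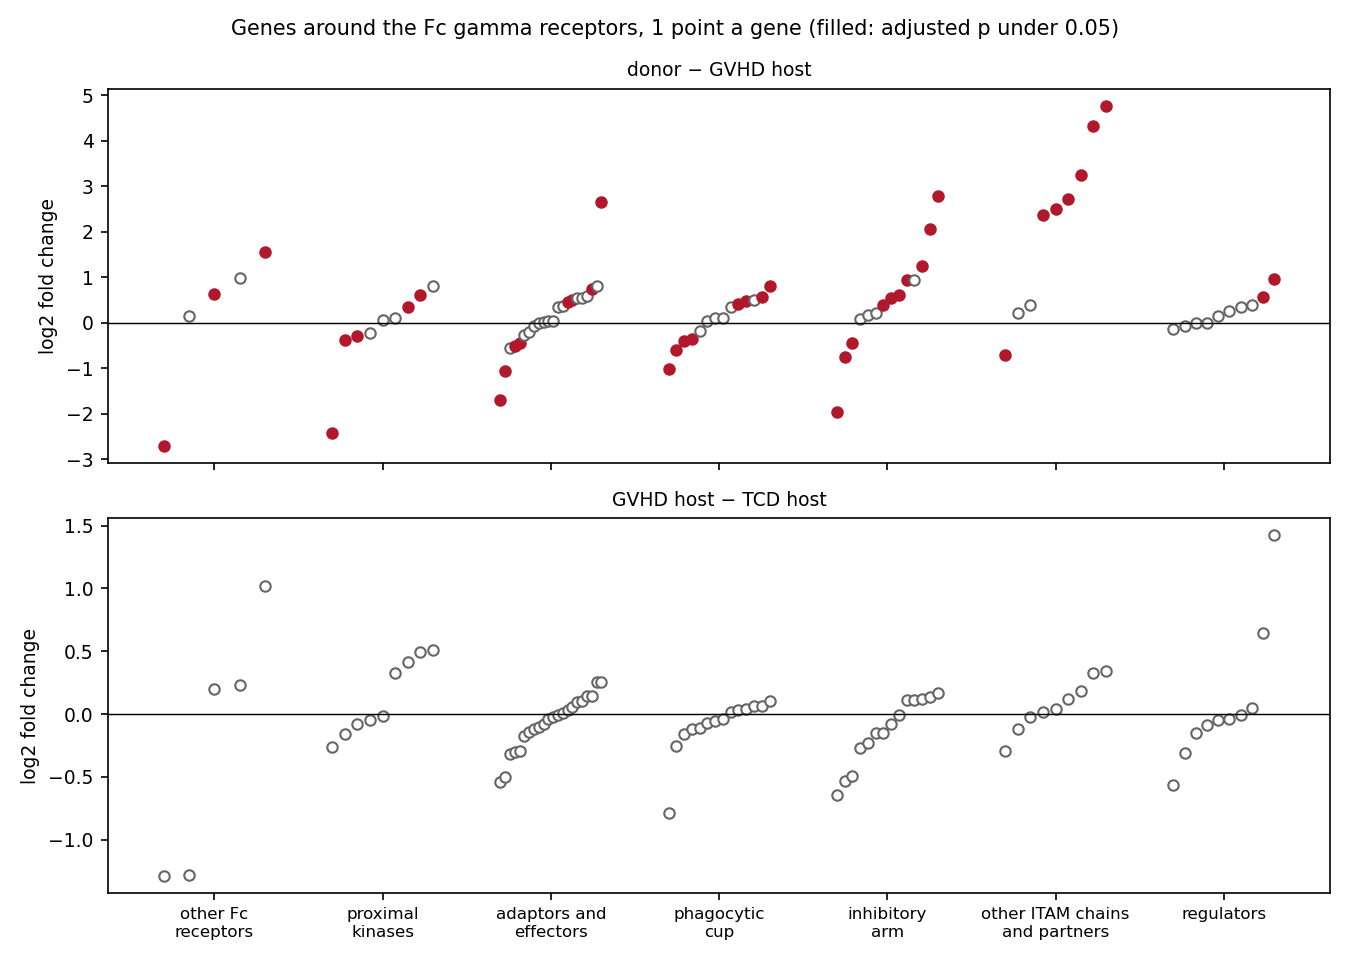
log2 fold changes (vertical axes) of 7 of the gene lists in donors against GVHD hosts and in GVHD against TCD hosts, 1 point a gene sorted within its list, filled where the adjusted p was under 0.05. In the upper panel the list of other ITAM chains and their partners holds the 2 highest points, Clec4n and Clec4e, and in the lower panel no point is filled.

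The ligand side was followed with 13 immunoglobulin and B or plasma cell genes, of which 5 could be tested in sorted cells and 1 in hippocampus. Ighm, the heavy chain of immunoglobulin M, differed by -0.16 between donors and GVHD hosts (adjusted p = 0.246) and by -0.01 in hippocampus (adjusted p = 0.985). Cd79b, a chain of the B cell receptor, was lower in donors than in TCD hosts by -0.73 (adjusted p = 0.0140), at 23.5 ± 4.0 (SD, n = 6) against 39.5 ± 6.6 (n = 3), and was not called with title numbers as blocks (-0.65, adjusted p = 0.0654) or without TCD host library 1 (-0.59, adjusted p = 0.0733) or 3 (-0.72, adjusted p = 0.0567). No gene of the lists was called in hippocampus. The nearest were Trim21 and Coro1a, each with an adjusted p of 0.0696 in limma. Trim21 had 3.95 ± 0.68 in GVHD and 1.68 ± 0.26 in TCD libraries (SD, n = 3 each, log2 difference 0.88). Coro1a, of the phagocytic cup list, was lower in GVHD, at 49.1 ± 5.8 against 69.2 ± 4.2 (log2 difference -0.49).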

How the data were processed

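RNA had been sequenced from 6 hippocampus libraries and 13 libraries of sorted cells. The authors deposited 2 tables of normalised counts, a signal of similar library totals made on GRCm38 with RSEM 1.2.30, STAR 2.5.2a and cutadapt 1.9, per the submitters' processing notes. The method of scaling is not given in the sources used here. Of the values, 83.0% to 83.9% (hippocampus) and 69.2% to 73.9% (sorted) were whole reads within 0.02 of a read, so counts were not recovered and no count test was run; read numbers are estimates. The tables were scaled separately and no level was compared across them. Identifiers were matched to GENCODE, with 182 and 203 unmatched.

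Values were tested as log2(value + 1) with limma 3.58.1 (R 4.3.3; trend, two-sided) for genes with at least 1 in at least 3 libraries, adjusted by Benjamini-Hochberg over all 14404 or 13086 genes and called under 0.05. The sorted model held 13 libraries with API as covariate. Ratios to Fcgr2b were tested by exact permutation in scipy 1.17.1, with the smaller tail doubled.

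Named genes were the 5 members, up to 4 members of each list with the smallest p in a comparison with any called member where 5 or fewer were, and the 3 genes of highest correlation in sorted cells; Fcgrt, Tyrobp and Spi1 were added once their values were known, and some genes the rule names are not reported here. The members and lists were chosen with earlier results of these data known.

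Deviations from group means correlated within all 4 donor and GVHD host pairs that share API and description numbers (r of 0.166 to 0.394). Pairs of those groups with unlike numbers ran from -0.345 to 0.404. Within all 3 donor and TCD host pairs that share title numbers r was 0.308 to 0.585, and with unlike numbers -0.582 to 0.532. Both numberings were taken as pairs, although some unlike numbers reached a similar r. Donors came from GVHD mice and TCD hosts from TCD mice, so the latter pairs cannot be the same animal. Alternatives covered pseudocounts, filters, rescaling, variance trend, GC content, the API covariate, the higher API number alone, replicate blocks and leaving out each library.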

Additional observations from a re-analysis of the deposited data

How the results depend on the processing

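Counts over all genes moved more than the members. In hippocampus 69 genes were called, 39 after quantile normalisation, 45 with the GC slope removed, 0 without the variance trend (2449 had an unadjusted p under 0.05 in limma), 16 with the replicate block by title number, and 0 to 123 with 1 library left out: 2 without GVHD library 1, 0 without GVHD library 3 or TCD library 2, and 123 without TCD library 3. Between GVHD and TCD hosts 14 were called, 2 with the replicate block by title number, 1 within the higher API number, 0 in a model of those groups alone, and 6 to 28 with 1 library left out (6 without GVHD host 1, 2 or 4, 7 without TCD host 2, 28 without GVHD host 3 and 22 without TCD host 3). The members called stayed at 0 of 5 in both comparisons under every alternative run. At a minimum of 5, Fcgr1, Fcgr2b and Fcgr4 had too little signal in hippocampus to be tested, the depth limit of these values.

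Against GVHD hosts the Fcgr4 difference was not called with a pseudocount of 0.1 (0.83), a minimum of 5 (0.82), median-ratio rescaling (0.82), quantile normalisation (0.73), no variance trend (0.82) or no API covariate (0.80), and ran from 0.67 to 1.03 with 1 library left out. Quantile normalisation moved Fcgr3 to -0.41 and Fcer1g to 0.56 (adjusted p = 0.0214); Fcer1g ran from 0.36 to 0.54 with 1 library left out. The replicate block by description number gave Fcgr1 -0.28. Title numbers did not pair these groups (r of -0.022 to 0.394), the hippocampus groups (-0.183 to -0.040) or the host groups (-0.017 to 0.222); as a replicate block they gave Fcgr1 -0.28 (adjusted p = 0.0539) and Fcer1g 0.59 (adjusted p = 0.00550). Blocks by the numbers taken as pairs changed no other call of the 5 genes.

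Against TCD hosts 2 of 5 members were called within the higher API number and 2 to 4 with 1 library left out. Fcgr2b was 0.50 within that number and 0.48 to 0.69 with 1 library left out. Fcer1g was 0.56 within that number, 0.55 with those groups alone and 0.46 to 0.68 with 1 library left out. Fcgr3 was -0.47 after quantile normalisation. Between GVHD and TCD hosts Fcgr3, near 0, ran from -0.0825 to 0.00365 with 1 library left out, 0.00236 without TCD host 1.

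With a pseudocount of 1 the hippocampus ratio of Fcgr4 to Fcgr2b turned to -0.071. Without GVHD host 1 the donor ratios against GVHD hosts passed (adjusted exact p = 0.0476); with 1 library left out they ran from -0.57 to -0.42 for Fcgr1, -0.78 to -0.63 for Fcgr3 and 0.50 to 0.84 for Fcgr4. In an alternative added after seeing the data, the exact p was taken from the absolute difference in place of doubling the smaller tail, and all 9 sorted ratio tests passed (adjusted p of 0.0357 to 0.0381): donors against GVHD hosts -0.47, -0.68 and 0.66 for Fcgr1, Fcgr3 and Fcgr4, donors against TCD hosts -0.82, -1.13 and 1.94, and GVHD against TCD hosts -0.35, -0.45 and 1.28. That alternative does not use the pairs; with a replicate block by title number the adjusted exact p of these ratios was 0.273, and by description number, also added after seeing the data, 0.125. The causes of these moves were not tested. Of the named pathway genes, 32 combinations of gene and alternative lost a call in the same direction and 984 kept their direction and their side of the threshold.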
